A study of Drosophila melanogaster with 7 samples.

Results

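The secretory pathway and ER chaperone genes described here are 27 of the 14804 genes listed in the fat body tables of Drosophila melanogaster larvae. They were chosen by gene name alone: names that begin with Sec, SrpR or Srp and a digit, coat protein names that end in Cop, and a short list of chaperones and enzymes of the endoplasmic reticulum (ER) and of ER to Golgi transport. The rule used no measured value, though it was set with earlier results of these data known. All 27 passed the filter on low values. Of the genes, 4 are ER chaperones or folding enzymes, 3 form the translocon, 7 belong to signal recognition, 3 are signal peptidase subunits, 1 is an oligosaccharyltransferase subunit, 3 act at COPII vesicles and 4 are COPI coat subunits. Of the other 2, Sec22 is a vesicle fusion protein, and Srp54 is an SR-type splicing factor that shares only its letters with the signal recognition particle. The particle's own GTPase is Srp54k. Spelling limits the set, since Sec13, Sec23, Sec31 and the exocyst subunits are written in lower case in the tables and were described apart.

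A protein bound for the cell surface or the hemolymph is recognized by the signal recognition particle while it is still being made, threaded through the Sec61 channel, trimmed by signal peptidase and glycosylated by oligosaccharyltransferase. Chaperones of the ER lumen fold it, COPII vesicles carry it to the Golgi, and COPI vesicles bring escaped ER proteins back. The larval fat body, the fly's counterpart of liver and adipose tissue, makes the larval serum proteins and most humoral immune proteins by this route.

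Fat bodies of wandering larvae, dissected without gonads and pooled from 40 larvae per replicate, gave 3 control and 3 RasV12 libraries. Both groups carried Bx-Gal4, an insertion at Beadex that drives expression in wing imaginal discs and salivary glands. Controls came from a cross to w1118 and lacked the UAS transgene, while RasV12 larvae carried UAS-RasV12, a dominant active Ras. The comparison asks how the fat body, outside the driver's main tissues, differed between larvae with and without Ras-driven overgrowth in those other tissues. Age in days and the sex of the larvae are not given in the sources used here, and whether the replicates came from separate crosses is not given either, so p-values measure only the spread between these libraries. In RNA from whole tissue, fewer cells of a type and less RNA per cell cannot be told apart.

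Values are FPKM, the number of sequenced fragments of a gene relative to its exon length and to the depth of the library, here divided by each library's 75th percentile (scaled FPKM). Because FPKM is per length, levels of different genes can be set side by side. The confidence bounds of the tables imply between 2910838 and 7328089 fragments per library, with the fewest in control 3, which was sequenced in a run A used here and a shallower run B. Between 8283 and 11052 genes were above 0. Ras85D, the gene from which the transgene derives, was at a scaled FPKM of 32.3 to 39.3 in controls and 31.6 to 47.1 in RasV12, so it does not identify the genotype of a fat body library. The fat body markers were abundant in every library, with a summed scaled FPKM of 116836 to 175354 over 9 genes in controls and 68321 to 119688 in RasV12, and the sum was lowest in RasV12 2. Lsp2 was the most abundant of them, and 1 of the 9, Lsp1beta, was lower in RasV12 at an unadjusted p under 0.05. Of 10 hemocyte markers tested, 6 were higher in RasV12 at an unadjusted p under 0.05 in limma. They were Sr-CI, Pxn, eater, nimC1, He and Hml. The most abundant gene of the list, srp, was not, and whether its RNA came from hemocytes or fat body cells was not tested. The defining markers Hml and He were listed at 0 in all controls, but Hml was also at 0 in RasV12 1 and He in RasV12 3. In RasV12 2 and 3 Hml was at 13.9 and 11.0, and in RasV12 1 and 2 He was at 21.1 and 28.6. By comparison nimC1, eater, Pxn and Sr-CI were above 0 in every library. Whether a listing at 0 stands for absent RNA or a missing value was not tested. Of the 10 markers, 3 had a log2 fold change below 0: srp (-0.18) and the prophenoloxidase genes proPO-A1 (-0.57) and CG8193 (-0.72). The summed level was 165 to 240 in controls and 213 to 293 in RasV12, of which srp alone gave 101 to 124 and 81.9 to 106. With srp in it, the sum cannot be read as a level of hemocytes. Of 7 testis markers tested, 1 (Mst87F) was higher at that threshold, and their summed level was 4.61 to 14 in controls and 18.4, 186 and 36.0 in RasV12 1, 2 and 3. Midgut markers summed to 224, 30.6 and 3.51 in controls and to 2.13 to 8.67 in RasV12, with Jon25Bi lower at that threshold and Jon65Aiii most abundant. Salivary gland glue markers summed to 7.4 to 25.3 in controls and 7.64 to 12 in RasV12, with Sgs5 lower at that threshold, Sgs7 most abundant and 3 of the 10 genes at 0 throughout. Muscle markers summed to 31.6 to 92.7 and 12.4 to 46.0, with Act57B most abundant. The part of these other cells in the results below was not tested.

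Among the 27 genes, 3 of the 4 ER chaperones, Pdi, Crc and Hsc70-3, were the most abundant in the fat body. In controls the order of mean scaled FPKM began with Pdi (809 ± 186, SD, n = 3), a protein disulfide isomerase, and Crc (772 ± 94.4), the lectin chaperone calreticulin. Hsc70-3, the ER Hsp70 known as BiP, followed at 510 ± 176, and the Sec61 subunits Sec61alpha and Sec61beta at 279 ± 46.2 and 260 ± 35.4. Gp93, the remaining chaperone, was level with Sec61gamma (195 ± 88.7 and 195 ± 28.8). At the other end stood SrpRbeta (29.7 ± 5.55), Sec16 (24.8 ± 2.92) and the splicing factor Srp54 (15.8 ± 2.83). Only 4 of the 26 neighbouring pairs in this order separated without overlap of their 3 control values: Crc above Hsc70-3, Spase18-21 above Ost48, Sec22 above Srp14, and Sec16 above Srp54. Pdi and Crc did not separate. By mean FPKM over all 6 libraries, Crc (758), Pdi (654) and Hsc70-3 (453) stood far above the median of 12.2 over the 7575 genes tested, and even Srp54 at 16.3 lay above it. In the BDGP5 genome, 8 of the genes lie on 3R, 8 on 3L, 7 on X, 3 on 2L and 1 on 2R. Pdi spans 15130430 to 15135745 on 3L, Crc 5454660 to 5456607 on 3R, Hsc70-3 11695729 to 11701212 on X, Sec61alpha 6477178 to 6480489 on 2L and sar1 18182397 to 18186440 on 3R, positions counted from 1. The values of the 27 genes rested on 37 to 18040 fragments, none at or under the floor of 3.

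**Figure D1:**
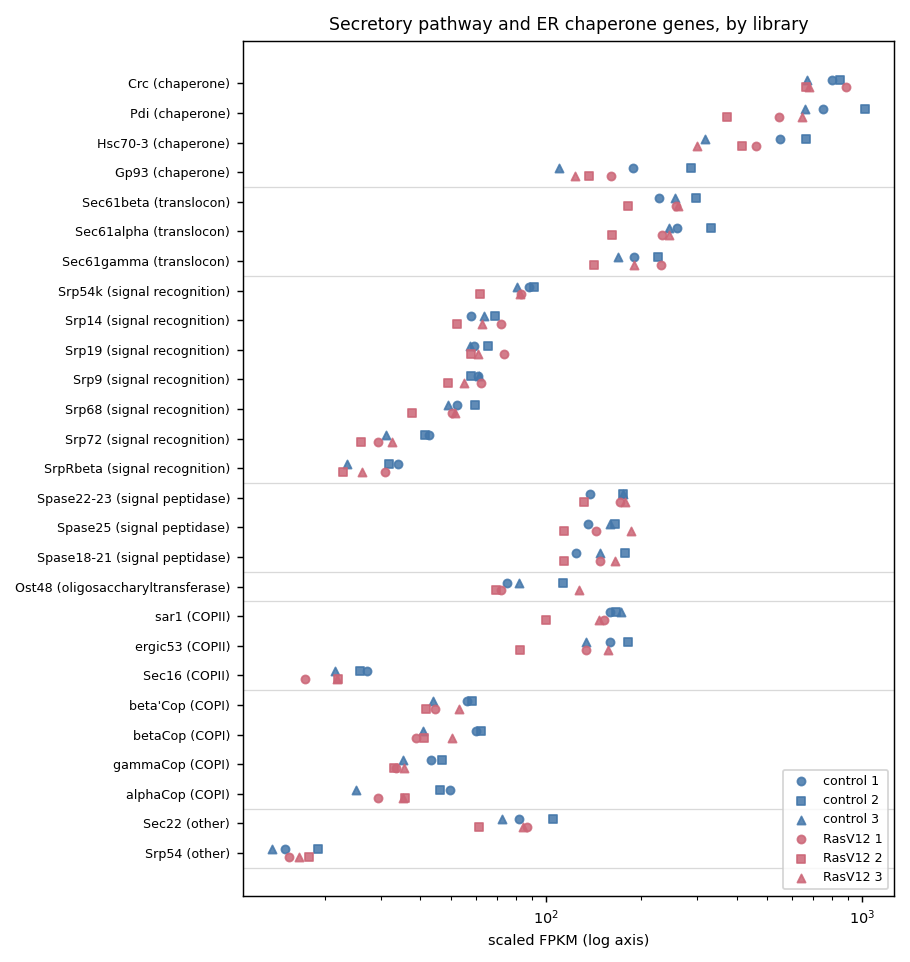
Scaled FPKM (log axis) of the 27 genes in each of the 3 control (blue) and 3 RasV12 (red) libraries, 1 point per library, ordered by role and level. Pdi, Crc and Hsc70-3 lie highest, Srp54 lowest at about 16, and the RasV12 2 point is the lowest of the 6 for 20 of the 27 genes.

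No gene of the set differed between the groups at an unadjusted p under 0.05 in limma, nor at an adjusted p. Over all 7575 genes tested, 4.11% were lower and 5.29% higher in RasV12 at the unadjusted threshold, and 0.106% passed the adjusted one. Of the 27 genes, 25 had a log2 fold change below 0, against 49.7% of all genes tested, and 3 had groups that did not overlap, all lower in RasV12 (Pdi, Sec61alpha and sar1), against 7.08% of all genes that were lower without overlap and 7.67% that were higher. The median log2 fold change was -0.18 (range -0.64 for Pdi to 0.08 for Srp19), against 0.00 over all genes, so the members sat slightly below the rest of the transcriptome after scaling. The comparison was not matched for level. With a filter at a mean FPKM of at least 5, the median over all genes was -0.03. The direction of the members depends on scaling: on FPKM as deposited 17 of the 27 were above 0, with a median of 0.04 where that of all genes was 0.20. The difference between both medians was similar, -0.16 and -0.18. Each gene's 95% interval lay below a log2 fold change of 1, so a doubling lies outside it for all 27. A fall to 0.5 of the control level lay outside the interval of 23, and within it for Pdi, Gp93, Hsc70-3 and ergic53. Adjusted p-values ran from 0.536 to 0.971.

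**Figure D2:**
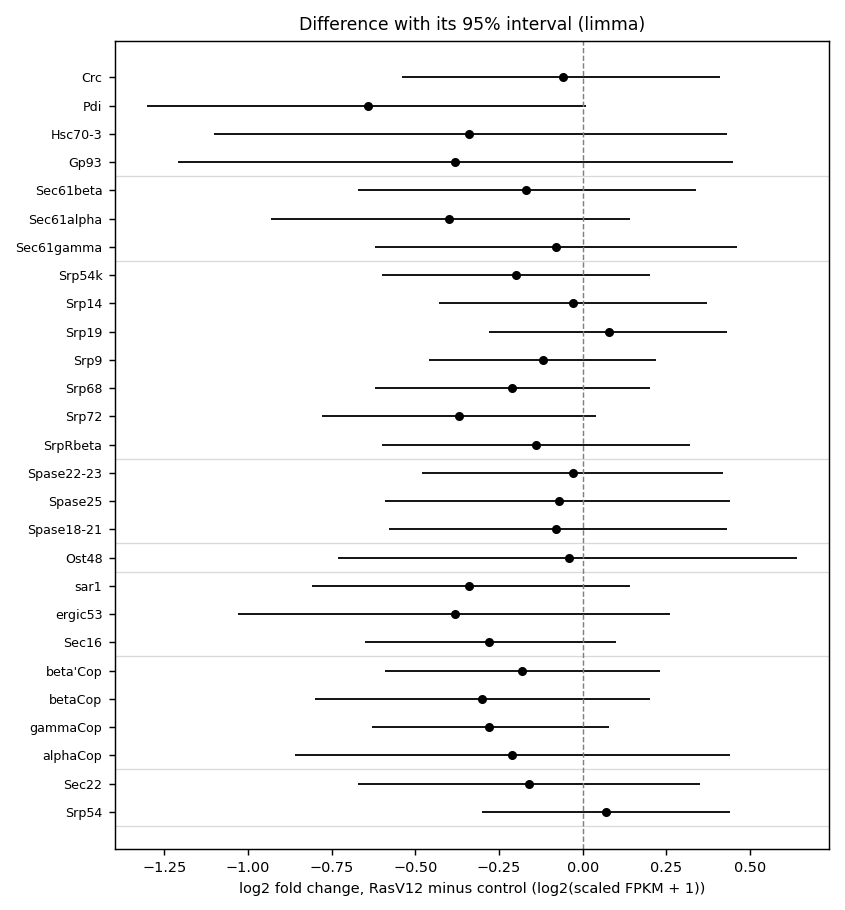
Log2 fold change (RasV12 minus control, on log2(scaled FPKM + 1)) of each gene with its 95% interval from limma, 3 libraries per group. The points lie between -0.64 for Pdi and 0.08 for Srp19, and every interval crosses 0.

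Pdi had the largest difference of the chaperones, with 1 control library far above the rest. Its scaled FPKM was 750, 1018 and 659 in control 1, 2 and 3 and 546, 373 and 646 in RasV12 1, 2 and 3. All RasV12 libraries were below all controls, with RasV12 3 close to control 3 and RasV12 2 lowest. The mean in RasV12 was 0.64 of that in controls, and the log2 fold change was -0.64 ± 0.27 (standard error, SE; 95% interval -1.30 to 0.01, adjusted p = 0.536 by limma).

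Crc was the most even of the chaperones. Calreticulin holds glycoproteins in the folding cycle of the ER, and is not the transcription factor of similar symbol, crc. It was at 799, 850 and 667 in controls and 891, 664 and 676 in RasV12, so the highest value of all was in RasV12 1 and the groups overlapped widely. The log2 fold change was -0.06 ± 0.20 (SE, 95% interval -0.54 to 0.41).

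Hsc70-3, the Hsp70 chaperone that binds unfolded chains and the Sec61 channel, overlapped between the groups. It was at 549, 663 and 318 in controls and 460, 415 and 299 in RasV12. Control 3 lay at about the level of RasV12 3, below the other libraries. The log2 fold change was -0.34 ± 0.32 (SE, adjusted p = 0.732). Gp93, the ER Hsp90 (GRP94), was at 188, 287 and 110 in controls and 160, 137 and 123 in RasV12. Its control libraries alone spanned the RasV12 range, with a coefficient of variation of 45.5% in controls and 13.3% in RasV12, and the log2 fold change was -0.38 ± 0.35 (SE, 95% interval -1.21 to 0.45). Gp93 lies at 3R from 23774380 to 23777882 (BDGP5, counted from 1) and its locus shares 110 bases with CG4951, which was listed at 0.

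Leaving out control 3, the shallowest library, changed the count of genes past the unadjusted threshold from 0 to 7, all lower in RasV12 (Srp72, alphaCop, Gp93, gammaCop, betaCop, Pdi and Hsc70-3), and the count of genes without overlap from 3 to 15. Over all genes, 4.65% were lower at the unadjusted threshold without control 3, and 14.8% were lower without overlap, a share that is larger with 2 libraries against 3 and makes the 15 not comparable with the 3 in the full design. No adjusted p fell under 0.05 there, the smallest being 0.456 for Srp72. Leaving out RasV12 3 gave 1 gene at the unadjusted threshold, Pdi, and 6 without overlap, where 8.6% of all genes were lower at that threshold and 18.3% lower without overlap. The other leave-outs gave 0 at that threshold and 3 or 4 without overlap in either direction.

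The 3 Sec61 subunits form the channel through which nascent chains enter the ER. Sec61alpha, the pore subunit, was at 259, 331 and 245.4 in controls and 232, 161 and 244.9 in RasV12. The groups did not overlap, but control 3 and RasV12 3 differed by little, and the log2 fold change was -0.40 ± 0.22 (SE, adjusted p = 0.606). Sec61beta, a small tail-anchored subunit, was at 227, 297 and 256 in controls and 258, 181 and 262 in RasV12, with 2 RasV12 libraries inside the control range and RasV12 2 below it. Sec61gamma, the other small subunit, was at 190, 226 and 169 in controls and 230, 142 and 190 in RasV12, with RasV12 1 the highest of all 6. The log2 fold changes were -0.17 for Sec61beta and -0.08 for Sec61gamma.

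Signal recognition was covered by 7 genes: the particle proteins Srp9, Srp14, Srp19, Srp54k, Srp68 and Srp72 and the receptor subunit SrpRbeta. None of the 7 passed the unadjusted threshold, 6 were below 0, and their median log2 fold change was -0.14. Srp54k, the GTPase that binds the signal peptide and the most abundant of them, was at 87.9, 91.8 and 80.6 in controls and 83.2, 61.9 and 82.8 in RasV12. Only RasV12 2 lay outside the control range, and the log2 fold change was -0.20 (95% interval -0.60 to 0.20). Srp72, which binds the particle's RNA with Srp68, had the smallest p of the 7, with 42.5, 41.3 and 31.2 in controls and 29.4, 26.0 and 32.4 in RasV12. RasV12 3 lay above control 3, so the groups overlapped, and the log2 fold change was -0.37 ± 0.17 (SE, adjusted p = 0.567). Srp19 was at 58.9, 65.4 and 57.4 in controls and 73.4, 57.9 and 61.0 in RasV12, with the largest positive log2 fold change of the set, 0.08. Srp9, which pairs with Srp14 to hold translation while the ribosome docks, was at 60.7, 57.9 and 61.4 and at 62.3, 49.0 and 54.9. Its controls varied by 3.09%, less than the counting error of 10.5% in its shallowest library. Srp14, Srp68 and SrpRbeta had log2 fold changes of -0.03, -0.21 and -0.14. Srp14 and Srp72 lie 7950 bases apart on 3R, with 2 listed genes between them.

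The 3 signal peptidase genes, whose products remove the signal peptide, had small differences, with log2 fold changes of -0.03 to -0.08. Spase22-23 was at 138, 175 and 175 in controls and 171, 132 and 177 in RasV12, the groups covering the same range. Spase18-21, a catalytic subunit, was at 124, 177 and 148 in controls and 148, 114 and 165 in RasV12, and its RasV12 2 library was the lowest of all. Spase25 had a log2 fold change of -0.07 (interval -0.59 to 0.44). Ost48, a subunit of oligosaccharyltransferase, was at 75.1, 113 and 82.0 in controls and 72.0, 69.4 and 127 in RasV12. RasV12 3 was the highest of the 6 and the other 2 RasV12 libraries the lowest, and the log2 fold change was -0.04 with the widest upper limit of the set, 0.64.

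Among the COPII genes, sar1, the GTPase that starts the coat, was at 159, 166 and 173 in controls and 152, 100 and 147 in RasV12. The coefficient of variation was 4.26% in controls, all RasV12 libraries were below them, and the log2 fold change was -0.34 ± 0.20 (SE, adjusted p = 0.618). Sec16, which organizes the ER exit sites, was at 27.1, 25.8 and 21.5 in controls and 17.3, 22 and 21.7 in RasV12. Control 3 lay below 2 of the RasV12 libraries, and the log2 fold change was -0.28 ± 0.16 (SE, adjusted p = 0.606). Its locus shares 354 bases with CG1463, at a mean FPKM of 3.39 against 22.5 for Sec16, and the sources used here do not state whether strand was used in counting. The cargo receptor gene ergic53 was at 159, 182 and 134 in controls and 134, 82.6 and 157 in RasV12, with a log2 fold change of -0.38 ± 0.27 (SE).

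The 4 COPI coat genes had log2 fold changes of -0.18 to -0.30, all below 0. The most abundant, beta'Cop, was at 56.2, 58.2 and 43.8 in controls and 44.4, 41.6 and 52.9 in RasV12. Control 3 lay among the RasV12 libraries and the other 2 controls above them. The gene with the smallest p, gammaCop, was at 43.1, 46.8 and 35.1 in controls and 33.5, 32.9 and 35.6 in RasV12. The RasV12 libraries were nearly equal and control 3 was level with them, and the log2 fold change was -0.28 ± 0.15 (SE, adjusted p = 0.599). For alphaCop and betaCop the log2 fold changes were -0.21 and -0.30. In control 1 and 2 alphaCop was at 49.7 and 46.0, and in control 3 at 25.1, below all RasV12 libraries. Sec22 (81.8, 105 and 72.4 in controls; 86.7, 61.3 and 84.2 in RasV12) had a log2 fold change of -0.16. Srp54, the splicing factor, was at 14.9, 19.0 and 13.6 in controls and 15.4, 17.7 and 16.5 in RasV12, inside the control range, with a log2 fold change of 0.07.

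The differences lay partly in single libraries rather than in the groups. RasV12 2 was the lowest library for 20 of the 27 genes (21.8% of all genes tested had their lowest value there), and control 2 the highest for 14 (15.7%). The median of the 27 genes, relative to the mean of the controls, was -0.02, 0.17 and -0.19 in control 1, 2 and 3 and -0.09, -0.37 and -0.07 in RasV12 1, 2 and 3 on the log2 scale. On these scaled values RasV12 1 and 3 were thus within the range of the controls, and RasV12 2 was not. The place of RasV12 2 depends on scaling, which multiplied RasV12 2 by 0.8323 and control 3 by 1.237. On FPKM as deposited, the 27 genes summed to 3898 in RasV12 2. That lies inside the control range, from 3166 in control 3 to 5340 in control 2. Without RasV12 2 the median log2 fold change was -0.06, with 17 genes below 0, and without control 2 it was -0.09, with 19 below 0. RasV12 2 also had the lowest summed level of fat body markers and the highest of testis markers, and their part in the result was not tested. Over 351 pairs of the 27 genes, the correlation of deviations from the group mean had a median of 0.58, with 304 pairs above 0. This is a description over 6 libraries that share depth and scaling. The same correlation was not computed over all genes, so it is not known to be particular to this set. The share of the summed FPKM held by the 27 genes was 0.628, 0.757 and 0.433% in controls and 0.598, 0.557 and 0.573% in RasV12, so the controls spanned the RasV12 range.

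**Figure D3:**
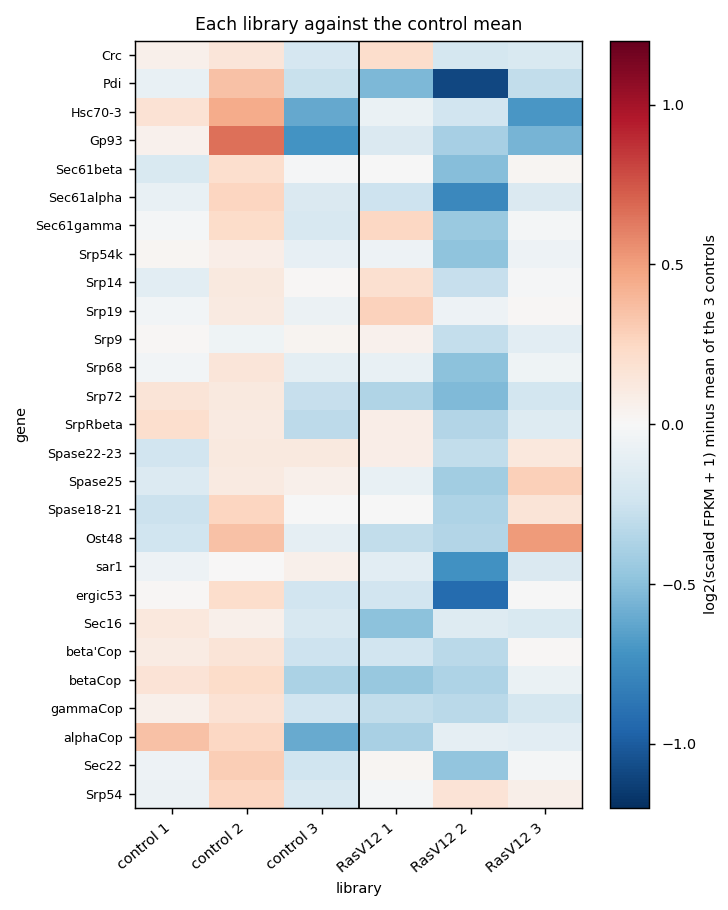
Each gene in each library, as log2(scaled FPKM + 1) minus the mean of the 3 controls (red higher, blue lower). The RasV12 2 column is blue for 26 of 27 genes, the control 2 column mostly red, and the control 3 column mostly blue.

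Ratios between partner genes in the same library do not depend on scaling. Of 10 ratios compared, none reached an adjusted p under 0.05, and with 3 libraries against 3 the smallest exact two-sided permutation p is 0.1. Only Sec61gamma to Sec61alpha and Sec61beta to Sec61alpha did not overlap between the groups. Sec61gamma to Sec61alpha was 0.734, 0.681 and 0.688 in controls and 0.989, 0.878 and 0.774 in RasV12 (exact permutation p = 0.1, adjusted over the 10 ratios to 0.5). Sec61beta to Sec61alpha was 0.875, 0.897 and 1.04 in controls and 1.11, 1.12 and 1.07 in RasV12, with the same p. Relative to either small subunit, Sec61alpha was lower in each RasV12 library than in each control. Pdi to Crc was 0.938, 1.197 and 0.988 in controls and 0.613, 0.562 and 0.955 in RasV12 (exact permutation p = 0.2), overlapping only through RasV12 3 and control 1. By contrast Gp93 to Hsc70-3 was 0.374 in controls and 0.362 in RasV12, on average, with a p of 0.7 from the exact permutation test.

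**Figure D4:**
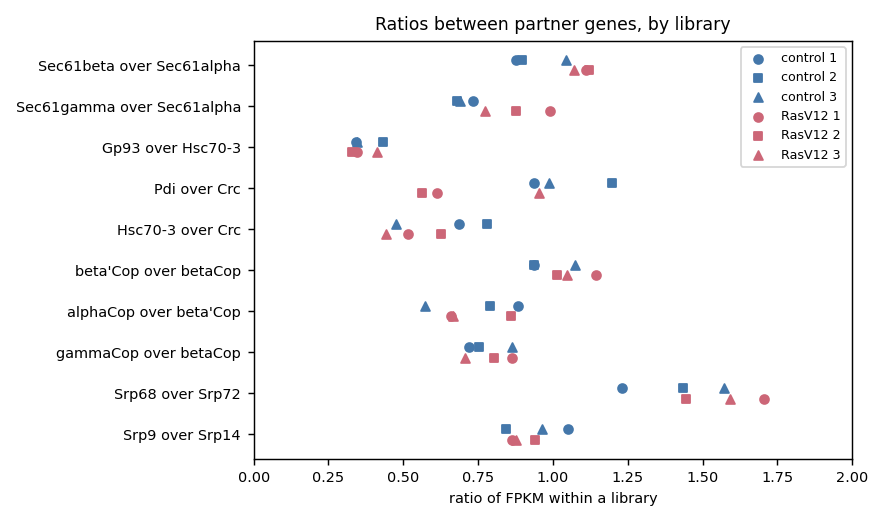
Within-library FPKM ratios of 10 partner pairs, 1 point per library (blue controls, red RasV12). The Sec61gamma to Sec61alpha points separate, 0.681 to 0.734 in controls and 0.774 to 0.989 in RasV12, while Gp93 to Hsc70-3 overlap.

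Runs A and B of control 3, 2 sequencings of 1 sample, give a measure of technical error at a low depth. Run B held 855836 fragments, against 2910838 in run A. Over the 27 genes, run B minus run A had a median log2 difference of -0.06 and ranged from -0.46 for Srp9 to 0.53 for Srp19, where the reads were few (20 to 91 fragments). For Sec61gamma it was 0.39, on 227 and 91 fragments. Over the 6843 genes above 0 in both, the interquartile range was -0.28 to 0.24. The differences between the groups were -0.64 to 0.08. They are between means of 3 libraries each, and run A itself is 1 of the controls. The spread between single runs is therefore not a like measure.

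Genes of the same machines under other names, 24 in all and chosen after the names in the tables had been seen, had a median log2 fold change of -0.16, with 17 below 0. At the unadjusted threshold 1 was higher in RasV12 and 0 lower. The higher gene was the exocyst gene sec3 (7.03, 6.57 and 6.93 in controls, 8.89, 7.88 and 8.93 in RasV12, log2 fold change 0.29, adjusted p = 0.531). Without overlap, sec3 was higher and 3 other exocyst genes were lower: sec5, sec6 and sec8 (log2 fold changes -1.53, -0.18 and -0.30). Over all genes tested, 7.67% were higher and 7.08% lower without overlap. The COPII coat gene sec31 was at 104, 105 and 69.5 in controls and 55.8, 49.8 and 80.2 in RasV12 (log2 fold change -0.58), with RasV12 3 above control 3. The exocyst gene sec5 was listed at 0 in RasV12 1 and was at 9.14 to 13.7 in the other libraries. Of 16 genes listed for ER folding, 0 were higher and 1 lower at the unadjusted threshold. The lower gene was CG10420, the fly Sil1, a nucleotide exchange factor for BiP. It was at 17.5, 25.8 and 15.3 in controls and 13.9, 12.1 and 11.3 in RasV12 (log2 fold change -0.58 ± 0.21, SE, adjusted p = 0.513). All of its RasV12 values lay below all of its controls. The median of that list was -0.12. Its most abundant gene, at a mean FPKM of 788, was Hsc70-4, a cytosolic Hsp70 and so not an ER gene. Of 14 names of translocation partners, 4 were not found in the tables. Of the 10 found, some of them also among the 24 genes, none passed in either direction (median -0.10, Tapdelta highest at 257). Among 12 regulators of the unfolded protein response, 1 was lower at the unadjusted threshold, PEK, the fly PERK kinase, at 11.4, 13.1 and 7.51 in controls and 4.25, 5.88 and 8.56 in RasV12 (log2 fold change -0.70 ± 0.28, SE, adjusted p = 0.531). RasV12 3 lay above control 3. Xbp1, the factor spliced in response to ER stress, was at 327, 371 and 348 in controls and 386, 312 and 448 in RasV12 (log2 fold change 0.12), and FPKM over the gene do not show its splicing. The most abundant of this list was crc, the ATF4 homolog, with a mean FPKM of 435. Of 28 Golgi and vesicle traffic genes, none passed and 22 were below 0 (median -0.12, Arf79F highest at 353), and of 8 late secretion genes none passed (median -0.11, Cdc42 highest at 131). No gene of these lists passed the adjusted threshold.

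**Figure D5:**
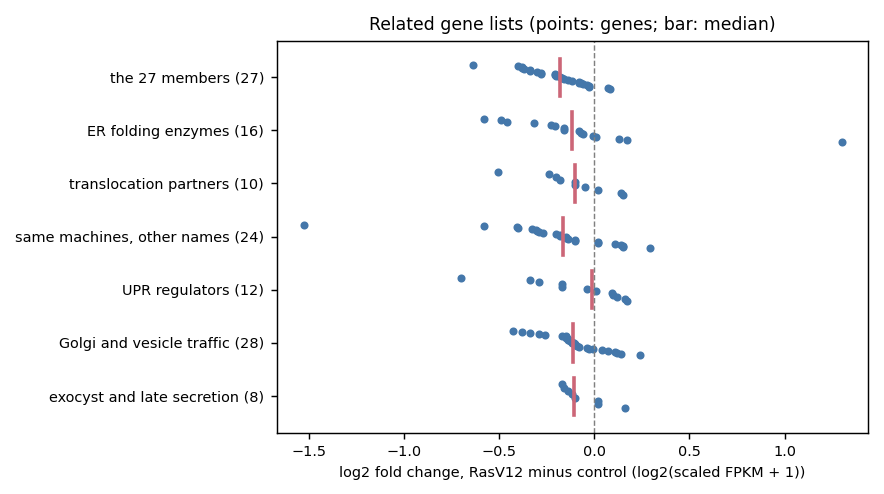
Log2 fold change (RasV12 minus control) of each gene in the 27-gene set and 6 related lists, 1 point per gene with the list's median as a bar. Medians lie between -0.18 and -0.02, and 2 single points stand apart, sec5 at -1.53 and Ugt at 1.30, both listed at 0 in at least 1 library.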

How the data were processed

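RNA of 3 control and 3 RasV12 fat body samples was sequenced as paired reads. Per the study's methods, reads were mapped with TopHat 1.0.14, duplicates were removed, and Cufflinks 0.0.5 computed the deposited FPKM with confidence bounds on the Ensembl annotation of BDGP5. Duplicate removal can lower the values of the most abundant genes. Control 3 was sequenced in runs A and B. Run A was used, since the deposited merged table equals run A times 0.7705 (within 1%) for 94.3% of the 6869 genes above FPKM 1, and lists at 0 439 of 456 genes seen only in run B. The authors' Cuffdiff comparison was not used.

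Fragments were worked out from the confidence bounds (87.4% of 25919 low values lay within 0.1 of a whole number). They cover counting error only. FPKM were divided by each library's 75th percentile, a pseudocount of 1 was added on the log2 scale, which understates changes of low genes, and genes were tested if their FPKM averaged 1 or more, with limma 3.58.1 in R 4.3.3 (lmFit, eBayes with trend, 3 libraries per group, no block), with Benjamini-Hochberg adjustment over 7575 genes. Only the limma step was tested on simulated data, without the scaling or the filter on FPKM. Coordinates are those of the deposited tables, with starts moved to count from 1. Some names were matched through a newer annotation, whose positions were not used.

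The members and lists were chosen with earlier results of these data known. Printed for every library were the 4 chaperones, genes without overlap, the most abundant gene and the gene of smallest p in each role, and the 3 genes that differed most between runs A and B. From the lists, genes at an unadjusted p under 0.05 (at most 5) and the most abundant gene were named. Values of other genes, among them ergic53, Srp54, alphaCop, betaCop, sec31, sec5, sec6, sec8, Ugt and Xbp1, were chosen after they were seen. Alternatives changed the pseudocount, filter, scaling, control 3 table, eBayes setting and block, or left out each replicate. The ratios and their alternatives were added after seeing the data. Sequences were not used here.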

Additional observations from a re-analysis of the deposited data

How the results depend on the processing

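No alternative gave a gene of the set an adjusted p under 0.05. At an unadjusted p under 0.05 the count was 0 in 13 of 16 alternatives, 1 with median-of-ratios scaling (Pdi), and 0 to 7 over the leave-outs. All of these were lower in RasV12. Of all genes tested, 4.4% were lower at that threshold with median-of-ratios scaling and 1.81% to 8.6% over the leave-outs, against 4.11% with the main setting. Genes without overlap numbered 0 without scaling, 1 with the merged table and 3 to 15 over the leave-outs. Over all genes, 1.64% were lower without overlap when unscaled, 6.49% with the merged table and 9.67% to 18.3% over the leave-outs, against 7.08% with all 6 libraries. The median log2 fold change was 0.04 without scaling and -0.28 to -0.06 over the leave-outs.

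The direction of 10 genes held in every alternative (Gp93, Hsc70-3, Pdi, Sec16, Sec61alpha, Srp72, betaCop, ergic53, gammaCop and sar1). Without scaling the log2 fold change was above 0 for Crc (0.16), Ost48 (0.18), Sec22 (0.06), Sec61beta (0.06), Sec61gamma (0.15), Spase18-21 (0.15), Spase22-23 (0.20), Spase25 (0.15), Srp14 (0.19), Srp54k (0.02), Srp68 (0.01), Srp9 (0.10), SrpRbeta (0.07), alphaCop (0.01) and beta'Cop (0.04), which follows from the shift of 0.20 in the median of all genes. With run B as control 3 it changed sign for Spase22-23 (0.00), Srp14 (0.05), Srp19 (-0.11) and Srp9 (0.02), and the cause was not tested. Over the leave-outs it ranged from -0.20 to 0.01 for Crc, -0.33 to 0.13 for Ost48, -0.26 to 0.01 for Sec61beta, -0.24 to 0.11 for Sec61gamma, -0.20 to 0.07 for Spase18-21, -0.14 to 0.10 for Spase22-23, -0.26 to 0.10 for Spase25, -0.15 to 0.09 for Srp14, -0.03 to 0.14 for Srp19 and -0.02 to 0.20 for Srp54.

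Same-numbered libraries had correlations of 0.0879, -0.1678 and -0.1504 after removal of the group means. These low values cannot show whether the replicates were collected in pairs. With a replicate block 0 genes of the set passed the unadjusted threshold and the smallest adjusted p was 0.718, while 3 genes in all passed the adjusted threshold against 8 without it. Over the leave-outs the difference in the ratio Sec61gamma to Sec61alpha was 0.13 to 0.23 and in Sec61beta to Sec61alpha 0.13 to 0.21, while it changed sign for Gp93 to Hsc70-3 (-0.04 to 0.02), alphaCop to beta'Cop (-0.11 to 0.05) and gammaCop to betaCop (-0.02 to 0.06). Depth limits the genes with the fewest fragments, Srp14 (37) and SrpRbeta (44), whose counting errors are 16.4% and 15.1% in the shallowest library.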
